A study of Mus musculus with 2 samples.

Results

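Stefin A proteins are small intracellular inhibitors of papain-like cysteine proteases, and the mouse carries a cluster of related genes for them. Of the 33696 genes of the deposited matrix, 5 genes of this cluster were examined, Cstdc4, Cstdc5, Stfa2, Stfa2l1 and Stfa3, and all 5 were matched by symbol. They were followed in the 3518 neutrophils among 10835 kept cells, 32.5% of the cells. The library came from subcutaneous tumours of 4T1, a mouse breast cancer line, labelled wild type, after treatment with PCN as the labels name it (PATCH in the series title). The control tumours, of the same line and genotype, received PBS, a salt solution, and the authors' cell list names 11643 control cells, whose counts were not analysed here. Mouse strain, age, dose, time after treatment and the number of animals behind the library were not stated in the labels.

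A cell was taken as a neutrophil when S100a8, S100a9, Csf3r and G0s2 together made up 2% or more of its unique molecular identifiers (UMIs), each of which marks 1 captured transcript. Neutrophils with 3 or more UMIs of Retnlg plus Mmp8, genes of neutrophils that have recently left the bone marrow, formed the Retnlg/Mmp8 group of 1657 cells. Of the others, those with 5 or more UMIs of Ccl3, a chemokine gene of activated tumour neutrophils, formed the Ccl3 group of 676 cells, and 1185 cells remained. The 7317 kept cells under the 2% limit are called the other kept cells. The 5 genes were chosen by their levels in these same cells, and the groups were defined from counts of the same cells, so the differences between groups are descriptions without a test, and with 1 library there was no replicate check. Levels are UMIs per 1000000 UMIs summed over a group (CPM), and intervals are 95% intervals for counting error only. Median depth was 2173 UMIs per cell in the Retnlg/Mmp8 group, 1658.5 in the Ccl3 group, 1341 in the remaining neutrophils and 6164 in the other kept cells.

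Stefins bind the active-site cleft of cathepsins B, L, S, H and C and so restrain proteases that leak from lysosomes or granules. In people a single stefin A gene is best known from skin and other epithelia, whereas in the mouse the family has expanded, and its members are prominent in bone marrow neutrophils. Neutrophils are made in the bone marrow, where precursors fill granules with proteins such as those of Ngp, Camp and Ltf, then pass through the blood and change their transcripts again in a tumour.

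Neutrophil identity was checked with genes outside the rule. Ly6g, the surface antigen used to define mouse neutrophils, stood at 454 CPM in the Retnlg/Mmp8 group, 5.57 CPM in the Ccl3 group and 15.6 CPM in the remaining neutrophils, against 0.734 CPM in the other kept cells. It was thus carried by the Retnlg/Mmp8 group and was nearly absent from the Ccl3 group, where it rested on 7 UMIs. Cxcr2, the receptor for neutrophil-attracting chemokines, stood at 312 CPM in the Retnlg/Mmp8 group, 184 CPM in the Ccl3 group and 377 CPM in the remaining neutrophils, against 5.72 CPM in the other kept cells. All 8 macrophage markers were also detected in neutrophils, at a summed 1013 CPM in the Retnlg/Mmp8 group, 1552 CPM in the Ccl3 group and 977 CPM in the remaining neutrophils, against 9747 CPM in the other kept cells. The 6 monocyte markers summed to 1209 CPM in the Retnlg/Mmp8 group, 453 CPM in the Ccl3 group and 753 CPM in the remaining neutrophils, against 1255 CPM in the other kept cells. Both sets of markers thus differed between the Retnlg/Mmp8 and Ccl3 groups, in opposite directions, and their part in the stefin A values was not tested.

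The 5 genes lie on chromosome 16 in a row of 10 stefin A family genes that RefSeq lists from Stfa2l1 to Stfa3 for GRCm38.p6. The row was cut at these 2 genes, and Csta1, a family gene outside it, had 0 neutrophil UMIs. The order is Stfa2l1, Cstdc4, Csta3, Csta2, Stfa1 and Cstdc3 on the plus strand, then Cstdc6, Cstdc5, Stfa2 and Stfa3 on the minus strand. Their start regions are shown because the 5 genes are high in the same cells and their upstream sequences are alike. The lines give the 120 bases just before each RefSeq start (GRCm38.p6, 5′ to 3′ on the gene's own strand). Capitals mark 3 stretches of 10 or more bases found in all 5 windows.
Stfa2l1 (chr16:36156691-36156810, plus strand): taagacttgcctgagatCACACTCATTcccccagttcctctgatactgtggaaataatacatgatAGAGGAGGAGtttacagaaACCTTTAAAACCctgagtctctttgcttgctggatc
Cstdc4 (chr16:36184092-36184211, plus strand): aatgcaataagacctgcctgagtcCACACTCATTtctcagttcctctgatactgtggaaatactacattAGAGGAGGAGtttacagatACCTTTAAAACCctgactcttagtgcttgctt
Cstdc5 (chr16:36367571-36367690, minus strand): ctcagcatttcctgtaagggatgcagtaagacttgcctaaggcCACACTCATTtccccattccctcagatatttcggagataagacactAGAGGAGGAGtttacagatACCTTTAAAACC
Stfa2 (chr16:36408364-36408483, minus strand): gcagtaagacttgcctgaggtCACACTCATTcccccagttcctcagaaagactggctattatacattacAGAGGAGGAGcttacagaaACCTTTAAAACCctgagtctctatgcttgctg
Stfa3 (chr16:36455393-36455512, minus strand): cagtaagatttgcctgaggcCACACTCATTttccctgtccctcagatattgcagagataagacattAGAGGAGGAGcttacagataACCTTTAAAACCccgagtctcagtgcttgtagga

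Over the 250 bases before the start, the promoters of the 5 genes were 65.1 to 89.4% identical in pairs, with Stfa2 and Stfa2l1 the most alike. Among 27025 RefSeq promoters, 1 a gene and each searched over the 250 bases before the start, the stretch ACCTTTAAAACC occurred on either strand in 9, a share of 0.0333%. These were the promoters of the 5 genes, of Csta3 and Stfa1 in the same cluster, and of the predicted genes Gm7260 and Gm39539. The stretch began 36 bases before the start in Stfa2l1, 34 in Stfa3, 32 in Cstdc4 and Stfa2, and 12 in Cstdc5. The stretch CACACTCATT occurred in 0.0851% of the promoters and AGAGGAGGAG in 0.777%. The hexamer TTTAAA, which lies inside ACCTTTAAAACC, was in all 5 promoters and in 12.1% of all promoters. The TATA box hexamer TATAAA was in 0 of the 5 and in 12.97% of all. The hexamer GAGGAA, the core of sites for the myeloid factor PU.1, was in 5 of 5 and in 23.1% of all, and TTGCNNAA, a form of the C/EBP site, was in Cstdc5 only and in 9.55% of all. These matches describe letters and not bound sites.

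Most of the stefin A genes were abundant transcripts of the neutrophils, above all of the Retnlg/Mmp8 group, and they ranked far lower elsewhere. The 5 genes together had 6502 CPM in all neutrophils (interval 6444 to 6560) and 75.6 CPM in the other kept cells (73.3 to 78.0), a ratio of 86.0 (83.2 to 88.8). Neutrophils held 12.4% of the UMIs of the kept cells but 48937 of the 52955 stefin A UMIs, or 92.4%. Ranked by UMIs within the Retnlg/Mmp8 group, Cstdc5 came 34th, Cstdc4 36th, Stfa2l1 63rd, Stfa2 68th and Stfa3 271st among 16682 genes with a UMI. In the Ccl3 group Cstdc4 came 34th, Stfa2l1 87th, Cstdc5 217th, Stfa2 280th and Stfa3 1668th, and in the remaining neutrophils the ranks ran from 87 for Cstdc4 to 3033 for Stfa3. In the other kept cells they ran from 4490 for Cstdc4 to 12088 for Stfa3 among 24369 genes. All 5 genes were at least 4 times higher in neutrophils than in the other kept cells, a size that 4.41% of the 16445 genes with 20 or more UMIs reached. Nothing is read from that count, since the genes were picked with this contrast known. The size of the ratio depended on the setting: it was 42.0 with the neutrophil limit at 5% of UMIs and 26.9 as a mean over cells. It was 184 once neutrophils with macrophage C1q transcripts and other cells between 0.5 and 2% of the neutrophil genes were left out, and 181 against other cells under 0.5% alone.

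The genes differed in how their level ran through the neutrophil groups. Cstdc4 had 2334 CPM in the Retnlg/Mmp8 group, 2402 CPM in the Ccl3 group and 1182 CPM in the remaining neutrophils, against 36.2 CPM in the other kept cells. Stfa2l1 had 1514, 1226 and 987 CPM in the Retnlg/Mmp8, Ccl3 and remaining groups, against 15.9 CPM in the other kept cells. For both genes the Ccl3 group therefore stood close to the Retnlg/Mmp8 group: the ratio of Retnlg/Mmp8 over Ccl3 neutrophils was 0.972 (0.933 to 1.01) for Cstdc4 and 1.24 (1.17 to 1.31) for Stfa2l1.

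Cstdc5, Stfa2 and Stfa3 were lower in the Ccl3 group. Cstdc5 had 2459 CPM in the Retnlg/Mmp8 group, 597 CPM in the Ccl3 group and 544 CPM in the remaining neutrophils, against 12.0 CPM in the other kept cells. Stfa2 had 1441, 493 and 387 CPM in the Retnlg/Mmp8, Ccl3 and remaining groups, against 9.34 CPM in the other kept cells. Stfa3, the scarcest of the 5, had 505, 71.6 and 36.5 CPM in the Retnlg/Mmp8, Ccl3 and remaining groups, against 2.17 CPM in the other kept cells. The ratio of Retnlg/Mmp8 over Ccl3 neutrophils was 4.12 (3.82 to 4.44) for Cstdc5, 2.92 (2.69 to 3.18) for Stfa2 and 7.05 (5.71 to 8.81) for Stfa3. Each of these intervals lay above those of Cstdc4 and Stfa2l1. At least 4 times higher were 2 of the 5 genes, Cstdc5 and Stfa3, and 2.42% of the 8432 genes with 20 or more UMIs in the 2 groups. For the sum of the 5 genes the ratio was 1.72 (1.68 to 1.77), from 8253 CPM in the Retnlg/Mmp8 group and 4790.4 CPM in the Ccl3 group.

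**Figure D1:**
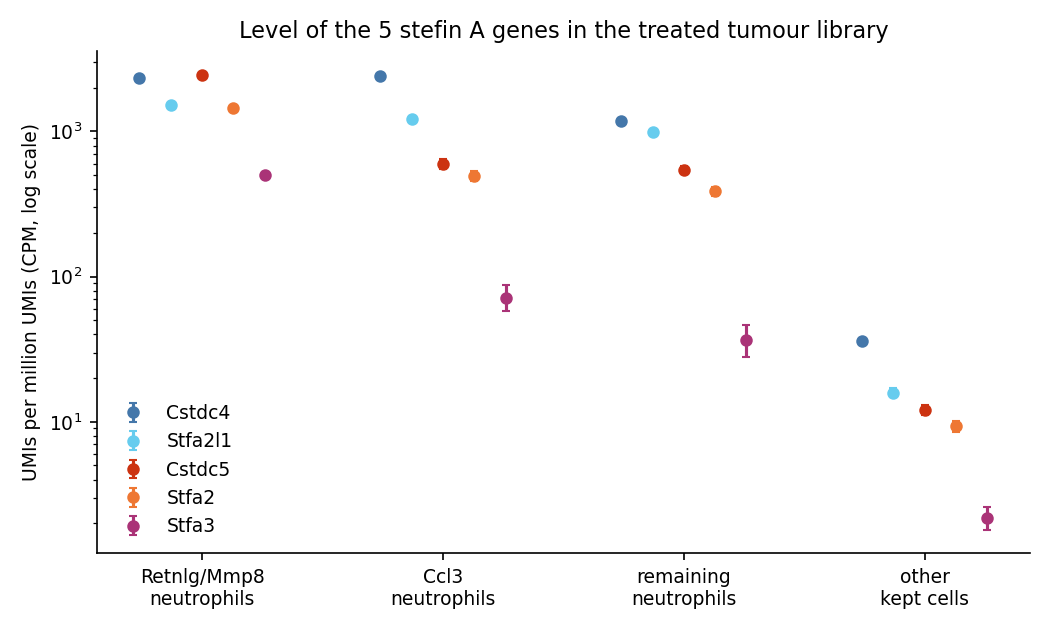
Level of each stefin A gene in CPM on a log axis, in Retnlg/Mmp8, Ccl3 and remaining neutrophils and in the other kept cells. Points are sums over the cells of 1 library and bars are exact Poisson intervals. Cstdc4 stands at 2334 CPM in the Retnlg/Mmp8 group and 2402 CPM in the Ccl3 group, while Stfa3 stands at 505 CPM in the Retnlg/Mmp8 group and 71.6 CPM in the Ccl3 group.

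The remaining neutrophils had the lowest level of all 5 genes among the 3 groups. The ratio of Ccl3 over remaining neutrophils was 2.03 (1.92 to 2.15) for Cstdc4, 1.24 (1.16 to 1.33) for Stfa2l1, 1.27 (1.14 to 1.42) for Stfa2, 1.96 (1.41 to 2.75) for Stfa3 and 1.10 (0.997 to 1.21) for Cstdc5. For Cstdc5 the interval includes equal levels. In all 3 groups and in the other kept cells Stfa3 was the lowest of the 5 genes by UMIs. The top place was held by Cstdc5 in the Retnlg/Mmp8 group and by Cstdc4 in each of the other groups.

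The mixture of stefin A transcripts thus differed between the groups. Cstdc4 made up 28.3% of the stefin A UMIs in the Retnlg/Mmp8 group, 50.1% in the Ccl3 group and 37.7% in the remaining neutrophils. Cstdc5 made up 29.8%, 12.5% and 17.3% of the stefin A UMIs of the Retnlg/Mmp8, Ccl3 and remaining groups, and Stfa3 made up 6.12%, 1.49% and 1.16%. Stfa2l1 went the other way, with 18.3%, 25.6% and 31.5% in the same groups, and Stfa2 held 17.5%, 10.3% and 12.3%. In the other kept cells Cstdc4 made up 47.9% and Cstdc5 15.9%, closer to the Ccl3 group than to the Retnlg/Mmp8 group.

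Set in chromosomal order, the ratio of Retnlg/Mmp8 over Ccl3 neutrophils was near or below 1 at one end of the cluster and above 2 at the other. Stfa2l1 and Cstdc4 open the row. Csta3, the next gene, had 63.6 CPM in the Retnlg/Mmp8 group and 213 CPM in the Ccl3 group, a ratio of 0.298 (0.252 to 0.354) and the opposite of Cstdc5. Stfa1, in the middle of the row, rested on 72 neutrophil UMIs and had a ratio of 2.90 with the wide interval of 1.26 to 8.21. Cstdc6, next to Cstdc5, had 169 CPM in the Retnlg/Mmp8 group and 42.2 CPM in the Ccl3 group, a ratio of 4.01 (3.03 to 5.40). The row ends with Cstdc5, Stfa2 and Stfa3, all above 2. Csta2 had 9 neutrophil UMIs, too few for a ratio, and Cstdc3 was not analysed here.

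**Figure D2:**
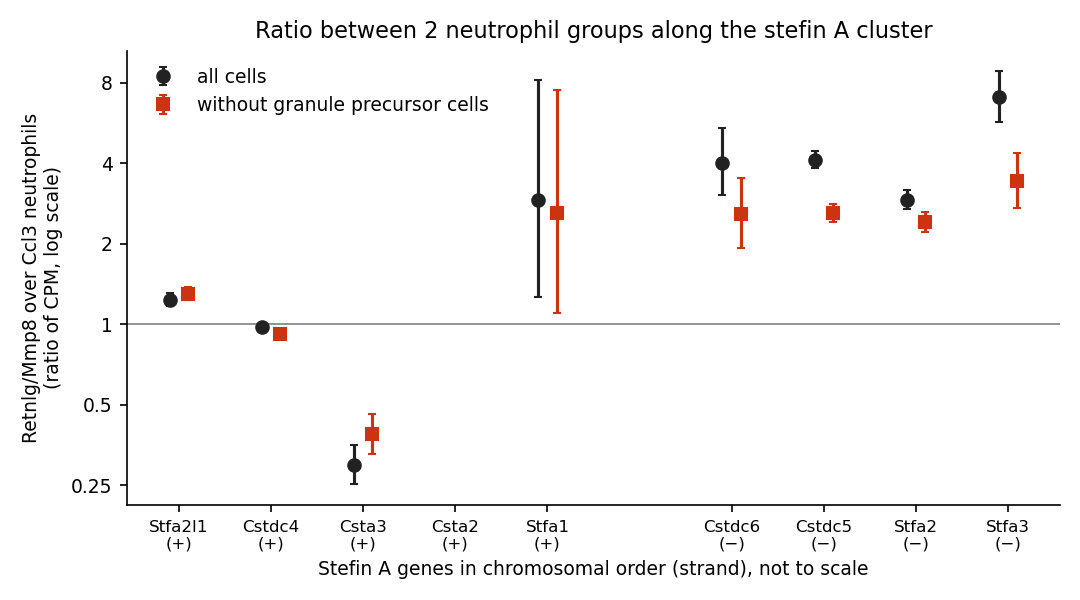
Ratio of CPM in Retnlg/Mmp8 over Ccl3 neutrophils on a log axis for the stefin A genes in chromosomal order, with exact intervals, in all cells and without cells carrying 3 or more UMIs of Ngp, Camp and Ltf. Csta2, with 9 neutrophil UMIs, has no point. Ratios are 1.24 for Stfa2l1, 0.972 for Cstdc4 and 0.298 for Csta3 at the left, and 4.01, 4.12, 2.92 and 7.05 for Cstdc6, Cstdc5, Stfa2 and Stfa3 at the right.

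The likeness of the transcripts limits how firmly UMIs can be split between these genes. Of the 50-base windows of the GENCODE M21 transcript of Cstdc4, 35.6% occurred unchanged in another gene of the family, and the share was 33.7% for Cstdc6, 33.5% for Cstdc5, 16.8% for Stfa2l1 and 14.7% for Stfa2. The longest run Cstdc4 shared was 134 bases with Csta2, Cstdc5 shared 138 with Cstdc6, and Stfa2 shared 97 with Stfa2l1, to which it was 96.5% identical. Reads from such runs fit more than 1 gene, and how such reads were counted was not stated, so how far reads of one gene stand under another could not be measured. Cstdc6 had 892 neutrophil UMIs beside 12864 of Cstdc5, so its values may depend on that split. The same limit holds for Stfa1, which had 72 neutrophil UMIs and was 96.9% identical to Cstdc5. Stfa3 and Csta3 had 0 windows in common with another family gene, and they showed the highest and the lowest ratio of Retnlg/Mmp8 over Ccl3 neutrophils, 7.05 and 0.298. The Csta3 transcript used was just 294 bases long and 89.2% identical to Cstdc5 where aligned. Its lack of shared windows therefore cannot show that its counts are free of reads of other family genes.

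Within the Retnlg/Mmp8 group, cells that also carried transcripts of secondary granule proteins had a higher level of Stfa3, Cstdc5 and Stfa2. These were 261 cells with 3 or more UMIs of Ngp, Camp and Ltf, a division chosen after values had been seen, with a median depth of 4452 UMIs against 1979.5 in the other 1396 cells. They are called granule precursor-type cells after these 3 genes alone. Mpo, Elane and Prtn3, further precursor genes, had 6, 1 and 75 UMIs in the whole Retnlg/Mmp8 group. The remaining neutrophils, with fewer UMIs in all, had 9, 55 and 137. Stfa3 had 1241 CPM in the granule precursor-type cells and 217 CPM in the other cells of the group, a ratio of 5.73 (5.24 to 6.27). Cstdc5 had 5092 CPM in them and 1429 CPM in the others, a ratio of 3.56 (3.43 to 3.70). The ratio was 1.94 (1.85 to 2.04) for Stfa2 and 2.94 (2.55 to 3.40) for Cstdc6. The other end of the cluster differed little or went the opposite way: the ratio was 1.22 (1.17 to 1.27) for Cstdc4, 0.892 (0.844 to 0.941) for Stfa2l1 and 0.180 (0.107 to 0.286) for Csta3. Detection at 1000 UMIs did not follow the level of the sum: a UMI of any of the 5 genes was found in 72.4% of the granule precursor-type cells and 78.5% of the others. Stfa3 was found in 31.8% of the precursor-type cells and 11.7% of the others, and Cstdc5 in 57.9% of the precursor-type cells and 43.2% of the others. Cstdc4 was found in 36.4% of the precursor-type cells and 53.5% of the others, although its level in CPM was higher there.

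Leaving these cells out narrowed the difference between the Retnlg/Mmp8 and Ccl3 groups for Stfa3, Cstdc5 and Stfa2 but did not end it, and widened it slightly for Stfa2l1 and Cstdc4. Without them the ratio of Retnlg/Mmp8 over Ccl3 neutrophils was 3.43 (2.71 to 4.38) for Stfa3, 2.60 (2.40 to 2.82) for Cstdc5, 2.41 (2.20 to 2.63) for Stfa2 and 2.58 (1.93 to 3.51) for Cstdc6. It was 1.30 (1.23 to 1.38) for Stfa2l1, 0.916 (0.878 to 0.956) for Cstdc4 and 0.388 (0.326 to 0.461) for Csta3, so both ends of the cluster still differed. For the 5-gene sum it was 1.40.

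Within the Retnlg/Mmp8 group, Cstdc4 was higher in cells without granule transcripts that also carried Ccl3. Of these 1396 cells, 367 had 5 or more Ccl3 UMIs and a median depth of 2362 UMIs, against 1832 UMIs in the 1029 with fewer. Cstdc4 had 3112 CPM in the cells with Ccl3 and 1779 CPM in those below, a ratio of 1.75 (1.67 to 1.83). Csta3 had a ratio of 1.51 (1.17 to 1.93), Stfa2 1.30 (1.22 to 1.39), Stfa2l1 1.26 (1.19 to 1.34) and Cstdc5 0.922 (0.865 to 0.982). Stfa3 was lower in the cells with Ccl3, at 149 CPM against 248 CPM, a ratio of 0.603 (0.501 to 0.723). Among all neutrophils, 47 cells had 10 or more UMIs of interferon-induced genes. These cells had 4883 CPM of the 5 genes together and the other 3471 had 6533 CPM, a ratio of 0.747 (0.692 to 0.806). By CPM each of the 5 genes was lower in the interferon-induced cells. With cells thinned to the same depth, a UMI of any of the 5 was found in 68.2% of them and 68.7% of the others. Stfa2l1 was found in 47.7% and 47.5%, and the other genes less often in the interferon-induced cells. The 47 cells held 685 stefin A UMIs, and the highest count in a cell was 187.

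**Figure D3:**
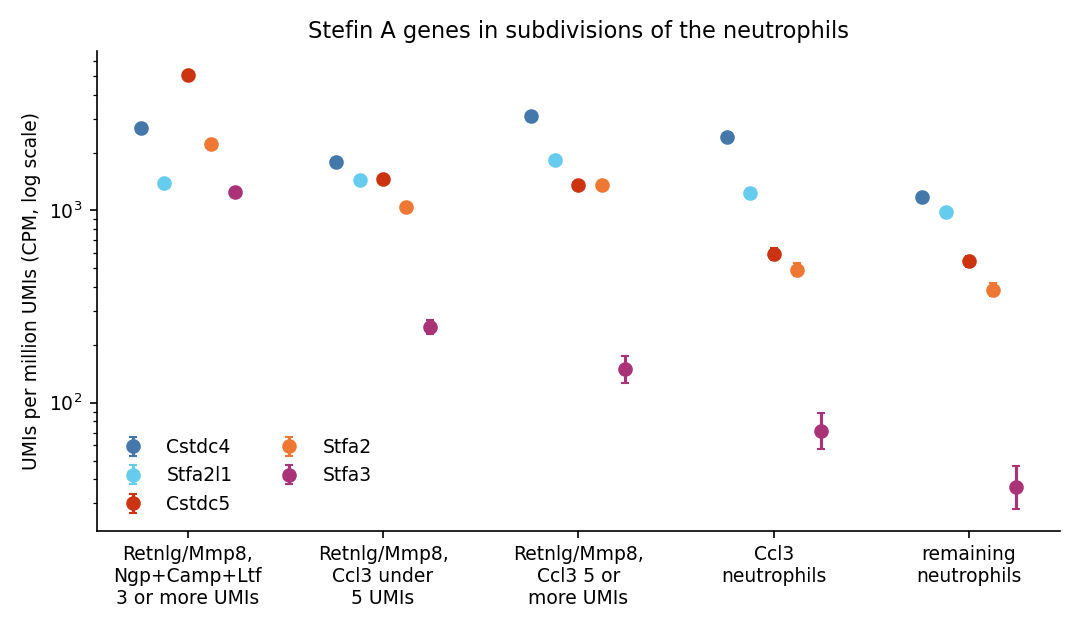
Level of each stefin A gene in CPM on a log axis, in 3 subdivisions of the Retnlg/Mmp8 neutrophils and in the Ccl3 and remaining neutrophils, with exact Poisson intervals. Cstdc5 leads at 5092 CPM in cells with 3 or more UMIs of Ngp, Camp and Ltf, and Cstdc4 leads in the 4 columns to the right. Stfa3 stands lower in each column than in the one before, at 1241, 248, 149, 71.6 and 36.5 CPM.

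Most neutrophils carried at least 1 of the 5 transcripts. A UMI of any of them was found in 84.6% of Retnlg/Mmp8 cells (82.7 to 86.3%), 71.4% of Ccl3 cells (67.9 to 74.8%) and 58.6% of remaining neutrophils (55.7 to 61.4%), against 15.01% of the other kept cells (14.2 to 15.8%), which were deeper. After thinning each cell to 1000 UMIs, which leaves out 531 shallower neutrophils and 384 other kept cells, the shares were 77.5%, 67.6% and 53.4% in the Retnlg/Mmp8, Ccl3 and remaining groups, against 5.24% in the other kept cells. The order of the groups was the same at both depths.

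Stfa2l1 was the most often detected of the 5 in Retnlg/Mmp8 cells and Cstdc4 in Ccl3 cells. At 1000 UMIs, Stfa2l1 was found in 53.5% of Retnlg/Mmp8 cells, 45.4% of Ccl3 cells and 38.0% of remaining neutrophils, against 1.93% of the other kept cells. Cstdc4 was found in 50.6% of Retnlg/Mmp8 cells, 56.0% of Ccl3 cells and 32.8% of remaining neutrophils, against 3.32% of the other kept cells. Cstdc5 was found in 45.7% of Retnlg/Mmp8 cells but 23.1% of Ccl3 cells, and Stfa2 in 36.7% and 20.7% of the same groups. Stfa3 was found in 15.1% of Retnlg/Mmp8 cells and 4.38% of Ccl3 cells. For each gene the Retnlg/Mmp8 and Ccl3 groups stood in the same order by share as by CPM. The order of the genes differed, since Cstdc5 led in CPM before thinning in the Retnlg/Mmp8 group.

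The paralogues were found together in the same cells. At each cell's own depth, 66.5% of Retnlg/Mmp8 cells (64.2 to 68.8%) held 2 or more of the 5 genes, as did 51.9% of Ccl3 cells (48.1 to 55.8%) and 34.2% of remaining neutrophils (31.5 to 37.0%), against 3.92% of the other kept cells (3.49 to 4.39%). Thinned to 1000 UMIs, the shares were 56.3%, 44.9% and 31.8% in the Retnlg/Mmp8, Ccl3 and remaining groups, against 1.89% in the other kept cells. All 5 genes at once were found in 8.46% of thinned Retnlg/Mmp8 cells, 2.02% of Ccl3 cells and 0.947% of remaining neutrophils, against 0.0865% of the other kept cells. Where just 1 of the 5 was found in a thinned cell, it was Cstdc4 in 30.8% of such Retnlg/Mmp8 cells and in 67.4% of such Ccl3 cells. Stfa3 was the lone gene in 5 of 328 such Retnlg/Mmp8 cells.

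**Figure D4:**
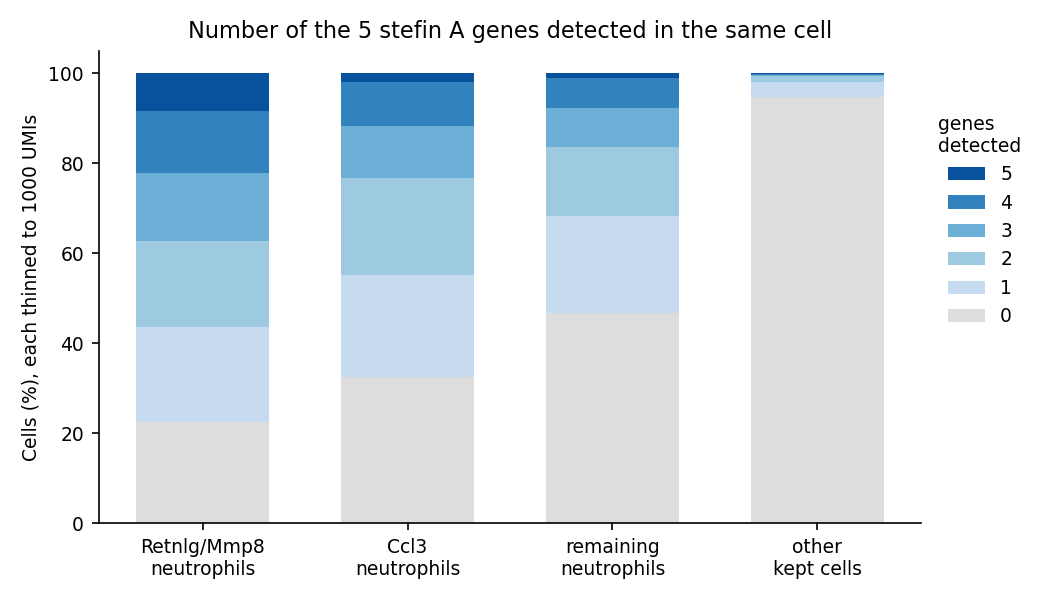
Share of cells, each thinned to 1000 UMIs, in which 0 to 5 of the stefin A genes were detected, for Retnlg/Mmp8, Ccl3 and remaining neutrophils and the other kept cells. The share with none is 22.5% in the Retnlg/Mmp8 group, 32.4% in the Ccl3 group, 46.6% in the remaining neutrophils and 94.8% in the other kept cells.

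Every pair of the 5 genes was found together in more thinned Retnlg/Mmp8 cells than the product of its 2 shares gives. The quotient ran from 1.32 for Cstdc5 with Stfa2l1 to 2.28 for Stfa2 with Stfa3. Of 234 thinned Retnlg/Mmp8 cells with Stfa3, 88.0% also held Cstdc5, 83.8% held Stfa2, 78.6% held Stfa2l1 and 73.5% held Cstdc4. Cells with Stfa3 were thus most often Cstdc5 cells, although Stfa2l1 and Cstdc4 were the more widespread genes. In Ccl3 cells the quotient ran from 1.42 for Cstdc4 with Stfa2l1 to 3.52 for Stfa2 with Stfa3, the second of these resting on 19 cells. In the remaining neutrophils it ran from 1.84 to 4.59 for the same pairs.

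Across the 2987 thinned neutrophils, Pearson's r between log counts was 0.65 for Cstdc5 with Stfa2, 0.53 for Cstdc5 with Stfa3 and 0.52 for Cstdc4 with Stfa2l1, and 0.25 for Cstdc4 with Stfa3. Cells share their library, and reads that fit both paralogues of a pair could be counted for either, so these values are a description. With Ccl3, r was 0.22 for Cstdc4, 0.07 for Stfa2l1, -0.01 for Stfa2 and -0.09 for both Cstdc5 and Stfa3. With Retnlg it was 0.31 for Cstdc5 and 0.24 for both Stfa2 and Stfa3, and it was 0.12 for Stfa2l1 and 0.08 for Cstdc4. Among 1286 other genes, those most like the 5-gene sum were Csta3 (0.25), the calcium-binding protein gene S100a6 (0.25), the granule gene Lcn2 (0.23), Fam162a (0.23) and the peroxiredoxin gene Prdx5 (0.22). The lowest were Zfp36 (-0.21), Junb (-0.21), Ccrl2 (-0.20), Dusp1 (-0.20) and Fgl2 (-0.17). All of these are weak values in sparse counts.

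The stefin A load was uneven from cell to cell. Per 1000 UMIs of a cell, the median of the 5-gene sum was 3.58 in Retnlg/Mmp8 cells, 2.52 in Ccl3 cells and 0.799 in remaining neutrophils, against 0 in the other kept cells. The 166 Retnlg/Mmp8 cells with the most stefin A UMIs, 10% of the group, held 58.2% of its stefin A UMIs, and the 68 such Ccl3 cells held 43.8%. Ranking by count favours deep cells, and the part of depth in these shares was not tested. Stefin A transcripts made up 1% or more of all UMIs in 24.4% of Retnlg/Mmp8 cells, 18.2% of Ccl3 cells and 8.52% of remaining neutrophils, against 0.465% of the other kept cells. At 5% or more there were 15 Retnlg/Mmp8 cells, 0 Ccl3 cells and 2 remaining neutrophils, against 1 other kept cell. The highest count in a cell was 833 stefin A UMIs.

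Other cystatin genes did not share one pattern. Of 16 listed, 12 were in the matrix and 6 had 20 or more UMIs, of which Cstdc6, Csta3 and Stfa1 were at least 4 times higher in neutrophils and Cst7, with 3 neutrophil UMIs, was at least 4 times lower. The median log2 ratio of the 6 genes was 2.27, and over all genes it was -1.37. Cstdc6 had 119 CPM in neutrophils and 0.979 CPM in the other kept cells, a ratio of 121, and Csta3 had 93.8 CPM in neutrophils and 3.14 CPM in the other kept cells, a ratio of 29.8. Cstb, which encodes the broadly expressed stefin B, had 699 CPM in neutrophils and 897 CPM in the other kept cells, and its ratio of Retnlg/Mmp8 over Ccl3 neutrophils was 0.434 (0.407 to 0.462). Cst3, which encodes the secreted inhibitor cystatin C, had 356 CPM in neutrophils and 948 CPM in the other kept cells.

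The cysteine proteases that stefins act on, and their relatives, were lower in neutrophils. Of 11 listed, 0 were at least 4 times higher and 9 at least 4 times lower in neutrophils than in the other kept cells, a size that 35.4% of all genes reached. Their median log2 ratio was -2.37, against -1.37 over all genes. Ctsb had 674 CPM in neutrophils and 2487 CPM in the other kept cells. Ctsl had 432 CPM in neutrophils and 1830.5 CPM in the other kept cells, and Ctss had 214 CPM in neutrophils and 1366 CPM in the other kept cells. The summed stefin A level of 6502 CPM in neutrophils was above that of each of the 11 genes in the same cells, whereas the 75.6 CPM of the other kept cells was below 8 of them. Between Retnlg/Mmp8 and Ccl3 neutrophils, 0 of 8 of these genes with enough UMIs differed by 4 times in either direction.

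Genes of neutrophil maturation give the setting of the difference within the cluster. Of 17 precursor and granule genes listed, 14 had 20 or more UMIs, and 9 of these were at least 4 times higher in Retnlg/Mmp8 than in Ccl3 neutrophils. The precursor genes Mpo, with 6 and 1 UMIs in the 2 groups, Elane, with 1 and 1, and Ctsg, with 0 and 0, had too few. The values of the list therefore do not cover them. Prtn3, another precursor gene, had a ratio of 2.31. Ngp, a granule protein gene, had a ratio of 28.3 and Camp, which encodes the cathelicidin, 8.20. Cstdc5, at 4.12, and Stfa3, at 7.05, lay below both of these but within the range of the list. That range ran from 1.47 for Mmp9 and 3.14 for Lcn2 to 81.5 for Ly6g. Of 8 genes of late blood neutrophils, 0 reached 4 times, and their values ran from 0.938 for Slpi to 3.40 for Wfdc17. Of 12 genes of tumour neutrophils, 0 were at least 4 times higher and 1, the chemokine gene Ccl4, was at least 4 times lower, a size that 0.676% of all genes reached. Ccl4 had 1241 CPM in Retnlg/Mmp8 and 6904 CPM in Ccl3 neutrophils, a ratio of 0.180, which is below the 0.298 of Csta3. The median log2 ratio was 2.63 for the precursor and granule genes, 0.77 for the late blood genes and -1.16 for the tumour genes, beside 1.55 for the 5 stefin A genes and 0.01 over all genes.

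Outside the neutrophils, most stefin A UMIs lay in cells led by neutrophil markers but under the limit of the rule. Of the 4018 stefin A UMIs in the other kept cells, 2894 were in 1004 cells whose leading markers were those of neutrophils, at 701 CPM (676 to 727). These cells had a median of 0.594% of the neutrophil genes. Just inside the limit, 168 cells at 2 to 2.5% had 2036 CPM (1899.7 to 2179.6), and just outside it 181 cells at 1.5 to 2% had 1623 CPM (1517 to 1734). The level reached 9526 CPM in cells at 10% or more and was 18.0 CPM in those under 0.1%. At the line of the Retnlg/Mmp8 group, neutrophils with 3 UMIs of Retnlg and Mmp8 had 6391 CPM and those with 2 had 4564 CPM, while those with 4 had 4949.9 CPM and those with 5 had 5169 CPM. At the line of the Ccl3 group, those with 5 UMIs of Ccl3 had 3244 CPM and those with 4 had 2887 CPM.

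**Figure D5:**
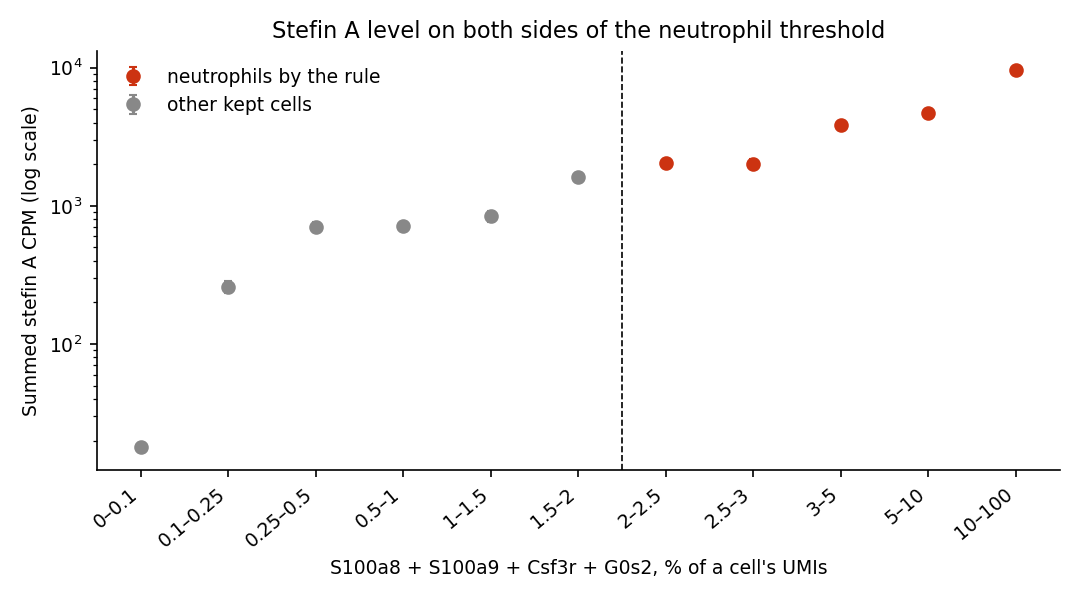
Summed stefin A level in CPM on a log axis, for kept cells binned by the share of S100a8, S100a9, Csf3r and G0s2 in their UMIs, with exact Poisson intervals. The dashed line is the neutrophil limit, with 2036 CPM in the bin just inside it and 1623 CPM in the bin just outside.

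Cells led by markers of other types held few stefin A UMIs. The level was 15.6 CPM (14.0 to 17.3) in 2822 macrophage-led cells, 30.3 CPM (27.1 to 33.7) in 1681 monocyte-led cells and 46.7 CPM (39.9 to 54.3) in 339 fibroblast-led cells. It was 27.6 CPM (18.9 to 38.9) in 282 T or NK cells and 27.3 CPM (16.2 to 43.2) in 122 B cells. A UMI of the 5 genes was found in 1.69% of macrophage-led, 2.84% of monocyte-led and 2.54% of T or NK cells after thinning to 1000 UMIs, at median depths before thinning of 7499, 5808 and 3153 UMIs. How much of these counts free RNA in the suspension gave was not tested. Per 1000 UMIs of S100a8 and S100a9, stefin A UMIs numbered 66.8 in Retnlg/Mmp8, 103 in Ccl3 and 58.2 in remaining neutrophils. They numbered 71.8 in macrophage-led, 68.0 in monocyte-led and 58.1 in T or NK cells. The other classes had no common ratio. It was 38.3 in dendritic cell-led, 46.9 in keratinocyte-led, on 3 UMIs, 47.8 in osteoclast-led and 56.8 in endothelial-led cells. It was 73.0 in tumour epithelial-led, 125 in B cell-led, 126 in fibroblast-led and 173 in neutrophil-led cells. In 167 cells of no class it was 408, on 31 stefin A UMIs. Keratinocyte-led cells, 34 in number, held 3 UMIs of the 5 genes, or 6.74 CPM (1.39 to 19.7).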

How the data were processed

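Count values as deposited by the authors are UMIs per gene and barcode of Chromium Single Cell 3′ v3 libraries per the labels, and the file header names Cell Ranger 8.0.1. The submitters' processing notes also list STAR, and the genome build was not stated. The matrix, of 12309 barcodes and 96873409 UMIs, was taken as the treated library, since it held all 10835 treated barcodes of the authors' cell list, against 37 of 11643 control barcodes, of which 33 were on both lists. The kept cells held 60652188 UMIs, with a median of 3575 per cell.

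The genes, cell groups and lists were chosen with earlier results of these data known. Named genes were the 5 members, the fixed cystatin, protease and maturation lists, and the 5 genes most and least like the members. Examples have 100 or more neutrophil UMIs, except Stfa1, Csta2, Cst7, Mpo, Elane and Ctsg, given with their UMI number. Genes and divisions outside these lists were chosen after their values were seen. UMIs were summed per group (Python 3.11.15; pandas 2.3.3; numpy 2.4.6; exact intervals from scipy 1.17.1). CPM have exact Poisson intervals, ratios the exact conditional interval and shares the exact Clopper-Pearson interval, at 95%, for counting error only. No test was run, since 1 library has no replicate. For calls of 4 times over all genes, 0.5 counts were added to each sum. Thinning drew 1000 UMIs per cell without replacement. Other kept cells took the class whose markers led their UMIs, with at least 3 UMIs. Scrublet in scanpy 1.11.5 marked 0 of 10835 cells and so had not worked; leaving out the 5% highest scores was an alternative. Free RNA was not subtracted. The ratio step was run on simulated independent Poisson sums, for which the intervals hold by construction. That run cannot show how unevenness between cells affects them. Promoters came from RefSeq (GRCm38.p6), transcripts from GENCODE M21, and gene names from the deposited gene table, with older symbols matched by gene ID. Figures were drawn with matplotlib 3.10.9.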

Additional observations from a re-analysis of the deposited data

Results flagged for a closer look

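Of the barcodes of the matrix, 1474 were not among the authors' kept cells. Stefin A transcripts were nevertheless present in them: the 53 left-out barcodes that met the neutrophil rule had 5076 CPM of the 5 genes together (4814 to 5348), with a UMI in 62.3% of them (47.9 to 75.2%). The 1421 other left-out barcodes had 31.2 CPM (29.4 to 33.1), with a UMI in 22.7% of them at another median depth, which was 736 UMIs in the 53 barcodes and 24576 UMIs in the 1421. In the 24 left-out barcodes of the Retnlg/Mmp8 group, Cstdc5 had 2302 CPM and Stfa3 408 CPM, on a median depth of 1922.5 UMIs. In the 6 of the Ccl3 group, Cstdc4 had 5621 CPM (3479 to 8592), while Stfa2 and Stfa3 had 0 UMIs.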

How the results depend on the processing

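No paired analysis was possible because each group is 1 library and no test was run. The ratio of the 5-gene sum in all neutrophils over other kept cells, 86.0 as reported, was 112 with all barcodes, 92.2 in cells of at least 1000 UMIs, 26.9 as a mean over cells, 97.5 with totals without the rule's genes, 114 and 42.0 with the rule at 1% and 5%, 92.2 after a thinned split, 113 without the highest doublet scores, 184 without mixed marker cells and 181 against other cells under 0.5% (added after seeing the data). The ratio of Retnlg/Mmp8 over Ccl3 neutrophils, 1.72, was 1.44 as a mean over cells, 1.87 with totals without the rule's genes, 1.84 and 1.67 with the rule at 1% and 5%, 1.66 with a split at 10 and 10 UMIs, 1.59 after a thinned split, 1.64 without mixed marker cells and 1.40 without granule precursor-type cells (added after seeing the data). Co-detection of 2 or more genes, 66.5%, was 72.1% with the split at 10 UMIs, 52.4% at 2 UMIs a gene and 56.3% thinned. By gene, the Retnlg/Mmp8 over Ccl3 ratio ran over 12 alternatives from 2.60 to 4.58 for Cstdc5, 2.21 to 3.16 for Stfa2, 3.43 to 8.57 for Stfa3, 1.09 to 1.35 for Stfa2l1 and 0.866 to 1.05 for Cstdc4, which alone crossed 1. The cause was not tested. Depth limits Stfa1, Csta2 and Stfa3 outside the Retnlg/Mmp8 group most.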
